A study of Homo sapiens with 9 samples.

Results

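The genes described here encode the proteins of the cytosolic ribosome. They were chosen by name: protein-coding genes called RPL or RPS with a number (with the suffixes A, X, L, AL or L1), RPLP0, RPLP1, RPLP2 and RPSA, leaving out the Y chromosome. The rule found 85 genes of 58735 in the deposited count table, 53 with large subunit names and 32 with small subunit names. Among them, 8 are paralogues of another member: RPL3L, RPL7L1, RPL10L, RPL22L1, RPL26L1, RPL36AL, RPL39L and RPS27L. After a filter on low counts 84 members were tested, and RPL10L had 0 counts in all 9 libraries.

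RNA was sequenced from HEK293A cells, a human embryonic kidney line selected for flat growth, in which p65 had been knocked out. p65 is the RELA subunit of NF-kB, the transcription factor that TNF activates. The cells were transfected with empty vector (replicates 1 to 3), with p65 WT (replicates 4 to 6) or with the mutant named p65 2CS (replicates 7 to 9), and all 9 libraries came from cells given TNF at 20 ng/mL for 2 h, 24 h after transfection. The series title names p65 palmitoylation as its subject and the labels do not spell out 2CS. By the labels every group was a p65 knockout and received TNF, so no untreated cells and no cells with their own p65 were analysed here. The labels do not say whether the 3 libraries of a group were separate cultures or whether the knockout was a single clone, and p-values then measure only the spread between these libraries.

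Library totals ranged from 15989601 to 25068515 counts. RELA took 0.00665% to 0.00699% of the counts with vector (a mean of 67.7 CPM, a transcript level that does not test the knockout of the protein), 0.793% to 0.972% under p65 WT and 2.40% to 2.69% under p65 2CS, so the amount of p65 transcript and the form of p65 cannot be told apart between the last 2 groups. Levels are given as CPM, counts scaled to a common library size, with library sizes adjusted by the trimmed mean of M-values (TMM). They are relative to the other transcripts of the library, and fewer cells making a transcript cannot be told apart from less of it per cell. Of 9 genes that HEK293 cells are known to express, 7 reached 1 CPM, and their summed level was 1654 to 1663 CPM with vector, 1589 to 1638 under p65 WT and 1408 to 1446 under p65 2CS. The genes of differentiated nephron cells summed to 1.52 to 1.87, 44.1 to 54.0 and 6.22 to 7.45 CPM, with 3 of 7 at 0 in every library and NPHS1 alone at means of 0.209, 41.7 and 4.29 CPM. Leukocyte markers summed to between 3.04 and 3.85 CPM, and endothelial and fibroblast markers to between 67.6 and 87.1 CPM. The part of these differences in the results below was not tested.

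The cytosolic ribosome is built from ribosomal RNA and one copy each of most ribosomal proteins, and cells keep the supply of these proteins near balance because unassembled ones are degraded. Their mRNAs are among the most abundant in growing cells. Nearly all begin with a C followed by a run of pyrimidines, the 5′ terminal oligopyrimidine (TOP) motif, through which mTOR signalling and the protein LARP1 control their translation and stability.

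RefSeq promoters (GRCh38.p14, 250 bases before to 50 after the start) matched 68 of the 85 members. Of these 68, 43 (63.2%) had C as the first transcribed base followed by 4 bases of C or T, against 4.02% of 27305 promoters, and 46 (67.6%) had an unbroken run of at least 8 C or T within 10 bases of the start, against 9.21%. The windows below hold 60 bases before the start and 20 from it. Capitals mark the longest unbroken run of C and T found within 10 bases of the start, printed to its full length. All are printed 5′ to 3′ on the strand of the gene. RPS21, RPL39, RPL22 and RPS24 are shown for large falls under p65 2CS, RPSA and RPL7A for rises under p65 WT, RPL22L1 as the paralogue of RPL22, and the last 4 because their RefSeq start differs from the motif.
RPS21 (chr20:62387043-62387122, plus strand): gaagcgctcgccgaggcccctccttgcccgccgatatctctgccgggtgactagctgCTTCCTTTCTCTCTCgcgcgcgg
RPL39 (chrX:119791611-119791690, minus strand): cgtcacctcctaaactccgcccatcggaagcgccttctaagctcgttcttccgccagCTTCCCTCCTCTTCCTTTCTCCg
RPL22 (chr1:6199576-6199655, minus strand): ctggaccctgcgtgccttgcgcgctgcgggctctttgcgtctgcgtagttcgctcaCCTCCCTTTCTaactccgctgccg
RPS24 (chr10:78033803-78033882, plus strand): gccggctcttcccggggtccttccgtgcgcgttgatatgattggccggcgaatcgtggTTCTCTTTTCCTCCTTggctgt
RPSA (chr3:39406660-39406739, plus strand): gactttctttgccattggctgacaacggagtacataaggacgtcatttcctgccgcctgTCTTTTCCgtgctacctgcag
RPL7A (chr9:133348158-133348237, plus strand): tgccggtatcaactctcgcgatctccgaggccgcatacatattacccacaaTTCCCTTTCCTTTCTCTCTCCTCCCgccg
RPL22L1 (chr3:170870176-170870255, minus strand): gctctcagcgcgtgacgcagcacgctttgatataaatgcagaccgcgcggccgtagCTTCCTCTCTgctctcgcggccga
RPL10A (chr6:35468341-35468420, plus strand): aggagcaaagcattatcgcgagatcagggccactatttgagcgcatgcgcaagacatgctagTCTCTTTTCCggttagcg
RPL7L1 (chr6:42879556-42879635, plus strand): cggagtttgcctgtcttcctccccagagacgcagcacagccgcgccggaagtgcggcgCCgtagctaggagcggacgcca
RPL27 (chr17:42998359-42998438, plus strand): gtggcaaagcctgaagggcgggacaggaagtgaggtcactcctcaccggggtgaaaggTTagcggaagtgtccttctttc
RPS15 (chr19:1438336-1438415, plus strand): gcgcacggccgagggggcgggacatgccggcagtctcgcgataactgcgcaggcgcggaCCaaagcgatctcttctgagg
In RPS21, RPL39, RPL22, RPS24, RPSA, RPL7A and RPL22L1 the run covers the first transcribed base. In RPL10A it begins 2 bases after that base, and in RPL7L1, RPL27 and RPS15 the marked run has only 2 bases. RPL27 and RPS15 have longer runs further into the printed window, across or past the edge of the searched bases. RPL27 and RPS15 had the 2 largest falls between the p65 forms among members past the test. Whether the runs bear on these falls was not tested. RPL22 and its paralogue RPL22L1 both hold a run at the start, and under p65 2CS against vector RPL22 passed the test while RPL22L1 did not.

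Other short motifs were searched on both strands of the same 300 bases. CCGGAAG, the core bound by ETS factors, was present in 23 of 68 member promoters (33.8%) and in 10.46% of all. GGGCGG, bound by Sp factors, was in 37 (54.4%) against 43.4%, and TATAAA in 7 (10.3%) against 12.3%. The kappaB consensus, which NF-kB binds, matched in 2 member promoters (2.94%), those of RPL35 and RPS19, against 5.67% of all. RPL35 had log2 folds of -0.02 under p65 WT and -0.15 under p65 2CS against vector, and RPS19 had 0.04 and -0.13. Matches of different motifs can share letters, such as the run of G in GGGCGG and the kappaB consensus. A match is a string of letters in the window and does not show binding.

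The ribosomal protein genes took a smaller share of all counts under p65 2CS than in either other group. Their summed share was 6.60%, 6.59% and 6.58% with vector, 6.47%, 6.56% and 6.65% under p65 WT and 6.20%, 6.05% and 6.05% under p65 2CS. The p65 2CS libraries lay below all 6 others, and the p65 WT libraries spread on both sides of the vector libraries. Counts of RELA itself dilute the rest, and with RELA left out of the totals the share was 6.52% to 6.71% under p65 WT and 6.20% to 6.36% under p65 2CS, so the p65 2CS libraries still lay below all 6 others. Large subunit genes held 3.71% to 3.804% of counts under p65 2CS against 3.97% to 4.07% in the 6 other libraries, and small subunit genes 2.33% to 2.40% against 2.498% to 2.58%. The ratio of large to small subunit counts stayed between 1.58 and 1.59 in all 9 libraries. The subunits thus kept their proportion. The mitochondrially encoded share, a rough sign of RNA and cell quality, ranged from 4.34% to 5.05% and overlapped between groups.

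**Figure D1:**
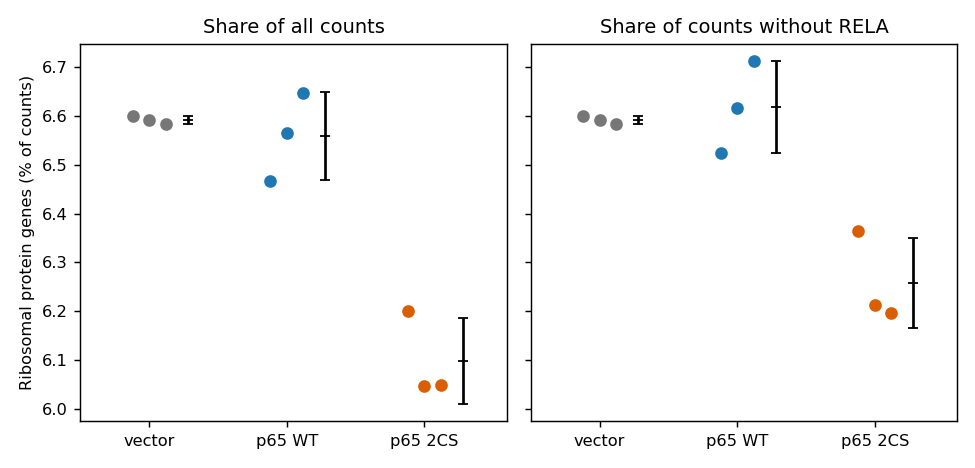
Share of all counts (left) and of counts without RELA (right) taken by the 85 ribosomal protein genes, in percent, for each library (points) with the group mean and SD (bars, n = 3), on an axis that does not start at 0. The p65 2CS libraries sit between 6.05% and 6.20% of all counts, below the 6 others, and between 6.20% and 6.36% without RELA.

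Per kilobase of gene length in the deposited table, RPS2 was the most abundant member at 1744 CPM per kb over the 9 libraries, followed by RPL7A at 1462, RPL8 at 1039.8, RPL13A at 1017 and RPL41 at 801. RPS2 and RPL7A also ranked the 2 highest with the length of one mRNA in place of the merged exons. The lowest were RPS27L at 5.39 CPM per kb, RPL36A at 3.41, RPS10 at 2.04, RPL3L at 0.519 and RPL10L, at 0. RPL3L is known as the skeletal and cardiac muscle form of RPL3, and RPL10L as a testis form of RPL10. RPL36A and RPS10 are core proteins whose genes share exons with readthrough genes, RPS10 has pseudogenes that held 66.8% as many counts as the gene, and whether reads of these genes were assigned elsewhere was not tested. In CPM, 71 members averaged at least 100, 31 members were among the 100 most abundant genes of the table, and the 10 highest members held 36.6% of the summed CPM of all 85. The members lie on 21 chromosomes.

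Under p65 2CS against vector the family was lower almost throughout, with a median below 0 under every scaling that can show a family-wide shift. Scaling libraries to the members' own sum removes such a shift by construction. Its median of -0.02 (log2) therefore does not bear on the fall. Of 84 members tested, 63 were lower and 0 higher at an adjusted p under 0.05 (edgeR quasi-likelihood test, Benjamini-Hochberg over 18195 genes), where 11.4% of all tested genes were lower and 12.1% higher. At an unadjusted p under 0.05 the counts were 71 and 0, and DESeq2 gave 61 and 0. The falls ran from 4.50% (RPS4X) to 18.3% (RPS21) with a median of 8.32%, and the median log2 fold of all 84 was -0.12 against -0.00 over all genes. In 69 members the 3 p65 2CS libraries all lay below the 3 vector libraries and in 1, RPL7L1, above them, compared with 18.1% and 18.5% of all genes. Among the 2241 other genes of at least 100 CPM, 659 were lower and 385 higher, with a median of -0.02. The median coefficient of variation between libraries of one group was 1.33% with vector, 1.80% under p65 WT and 1.69% under p65 2CS over the 71 abundant members. With cyclic loess scaling over expression level and limma-voom, 41 members were lower and 5 higher (RPL4, RPL7L1, RPLP0, RPS2 and RPSA) and the median was -0.06, where 10.0% of all genes were lower and 13.3% higher. The size of the family's fall thus depended on the scaling. RPL4, RPLP0 and RPSA changed sign between the scalings, with log2 folds of -0.04, -0.01 and -0.01 in the reported fit, while RPL7L1 and RPS2 were above 0 in both.

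RPS21, a small protein of the small subunit, showed the largest of these falls. It measured 213, 229 and 230.4 CPM with vector, 208, 203 and 206 under p65 WT and 193, 175 and 183 under p65 2CS. The 3 groups did not overlap, with vector highest and p65 2CS lowest. Its log2 fold under p65 2CS was -0.29 ± 0.03 (SE; edgeR adjusted p = 1.1e-08) against vector. RPL39, the smallest protein of the polypeptide exit tunnel, had 359.5, 358 and 368 CPM with vector, 322, 335 and 329 under p65 WT and 298, 295 and 300.3 under p65 2CS. Its groups did not overlap either and had the same order. The log2 fold under p65 2CS against vector was -0.28 ± 0.03 (edgeR adjusted p = 8.9e-11). RPL39 has a processed copy, RPL39P3, that fell from a mean of 115 to 84.8 CPM, and reads of the 2 may be split between them. RPL22, a large subunit protein that is dispensable for translation in many cells, had 195, 189 and 201 CPM with vector, 192, 196 and 191 under p65 WT and 168, 172 and 166 under p65 2CS. Here the vector and p65 WT libraries overlapped and the p65 2CS libraries lay clearly below both (log2 fold -0.21 ± 0.03, edgeR adjusted p = 1.9e-06 against vector). RPL26 and RPL36AL completed the 5 largest falls past the test at 16.1% and 18.1%, both at levels under 100 CPM, where their standard errors were 0.06 and 0.05 on the log2 scale, compared with 0.03 for RPL39.

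Members were also grouped by textbook position in the ribosome, after the values were seen and so without a test. Of the 3 proteins of the exit tunnel wall, 1 was lower under p65 2CS than with vector (RPL39), and RPL4 and RPL17 had log2 folds of -0.04 ± 0.02 and -0.12 ± 0.09 that did not pass the test. At the rim of the exit tunnel, where nascent chains leave, 5 of 6 proteins were lower under p65 2CS than with vector (RPL22, RPL23A, RPL26, RPL31 and RPL35), and RPL19 had a log2 fold of -0.05 ± 0.02. The stalk that recruits translation factors and its base gave 3 of 4: RPLP1, RPLP2 and RPL12 were lower, while RPLP0 was at 1574, 1595 and 1604 CPM with vector and 1582, 1576 and 1570.0 under p65 2CS, which overlapped. RPL5 and RPL11, which with 5S RNA form the particle that can bind MDM2, both fell, by 6.22% and 7.06%. At the mRNA entry channel RPS3 and RPS9 fell and RPS2 did not pass the test (log2 fold 0.01 ± 0.02). RPS3, also known as a partner of p65 in NF-kB complexes, had 1831, 1845 and 1814 CPM with vector, 1859, 1873 and 1928 under p65 WT and 1684, 1645 and 1656 under p65 2CS. The 3 groups did not overlap, the p65 WT group being highest and p65 2CS lowest, and the difference between p65 WT and vector did not pass the test (edgeR adjusted p = 0.14). RPS6, the substrate of S6 kinase, fell by 6.69%. Of 9 genes mutated in Diamond-Blackfan anaemia, a red cell failure caused by loss of ribosomal proteins, 7 were lower. Over the whole family 75% of the tested members were lower in this comparison, and over all genes 11.4%. The 7 of 9 is thus near the family's share, and each of these groups holds few genes.

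Not every member followed. The 21 that did not pass the test under p65 2CS against vector included the abundant RPS2, RPSA, RPLP0, RPL10A, RPL13, RPL4 and RPL19. RPL10A, a large subunit protein at the L1 stalk, measured 637, 646 and 630.4 CPM with vector, 642, 633 and 634 under p65 WT and 662, 629 and 619 under p65 2CS. All 3 groups overlapped, and p65 2CS replicate 7 alone gave its highest value. Its log2 fold was -0.00 ± 0.03 against vector and 0.00 ± 0.03 against p65 WT. RPL7L1, a nucleolar relative of RPL7 that works in large subunit assembly, was the only member whose 3 p65 2CS libraries lay above the 6 others, at 364, 365 and 367 CPM against 357, 351 and 354 with vector and 345, 349.7 and 356 under p65 WT. That difference of 3.13% over vector did not pass the test (edgeR adjusted p = 0.24). By contrast, 64 of 84 members had their 3 p65 2CS libraries below the 6 others, a pattern held by 7.33% of all genes.

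**Figure D2:**
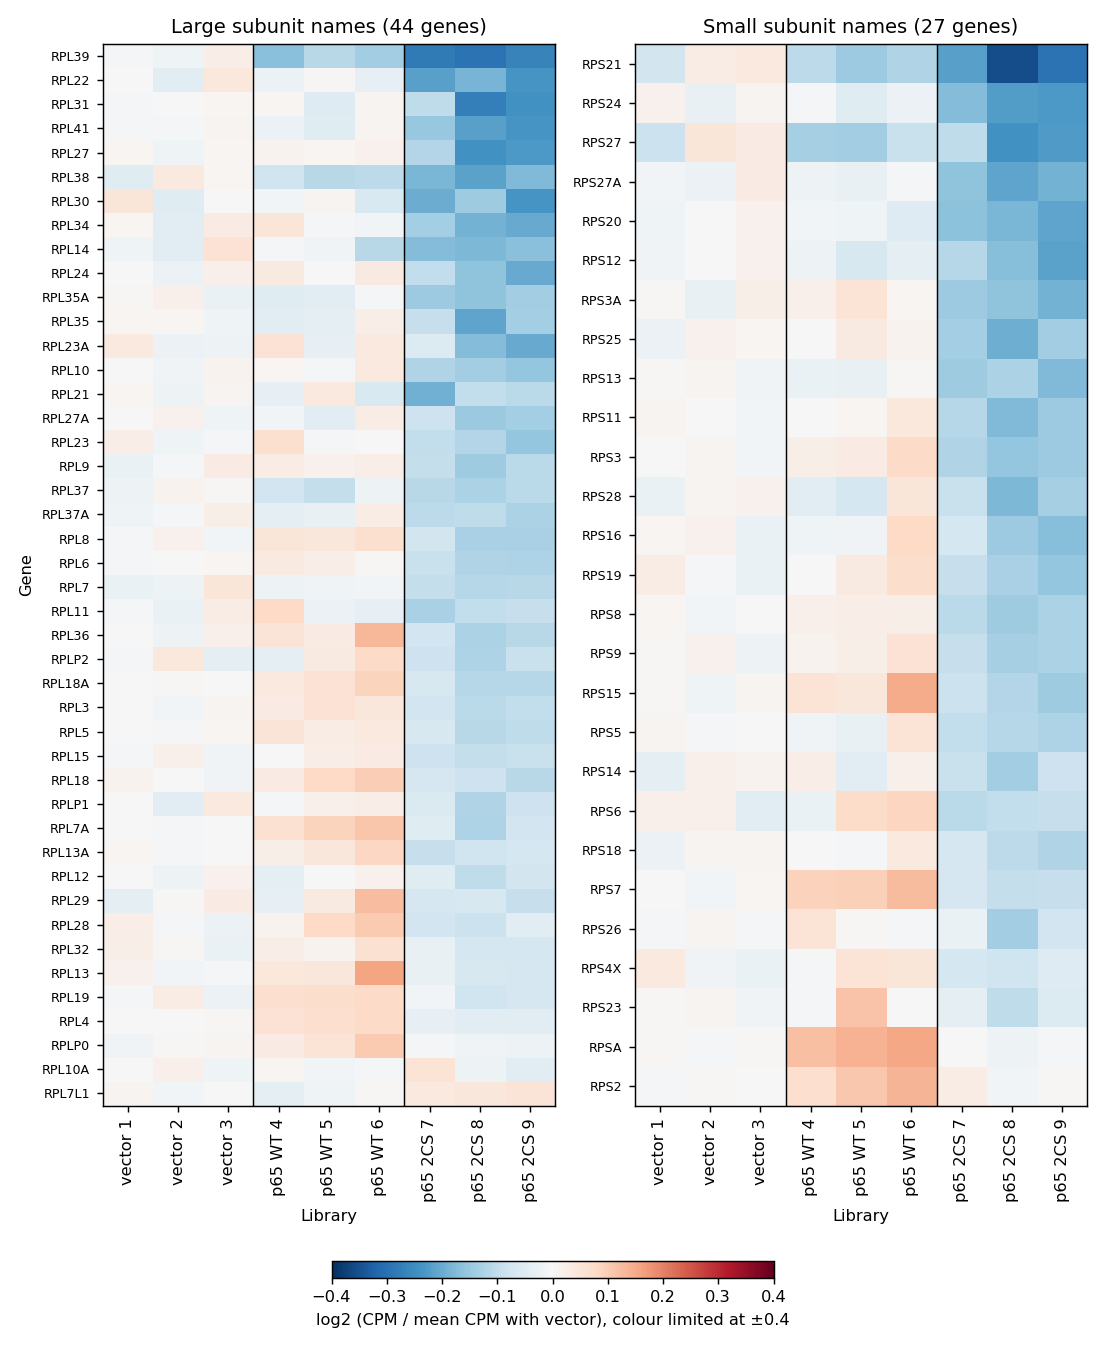
Log2 ratio of each library's CPM to the mean CPM with vector (colour, limited at ±0.4) for the 71 members of at least 100 CPM, large subunit names left and small subunit names right, with libraries in columns and genes in rows ordered by their log2 fold under p65 2CS against vector. The p65 2CS columns are blue for most genes, and RPS2, RPSA, RPL10A and RPL7L1 at the bottom are near white or red there.

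The comparison of p65 2CS with p65 WT asked whether the 2 forms differed, and the family was again lower under p65 2CS. On the scale of the members' own sum, which removes a family-wide shift by construction, the median log2 fold was 0.00047. Here 68 of 84 members were lower and 0 higher (edgeR, adjusted p under 0.05), against 17.9% lower and 13.4% higher of all genes, with 72 lower and 2 higher at an unadjusted p under 0.05 and 68 and 0 by DESeq2. The falls ran from 4.58% (RPL12) to 13.4% (RPL27) with a median of 9.20%, and the median log2 fold was -0.13. The p65 2CS libraries lay below all 3 p65 WT libraries in 68 members and above them in 2, where all genes gave 21.8% and 18.9%. With cyclic loess 29 members were lower and 4 higher (RPL10A, RPL7L1, RPLP0 and RPS2), against 17.1% and 12.8% of all genes, with a median of -0.05. Of the large subunit genes 41 of 52 were lower and of the small subunit genes 27 of 32, with medians of -0.13 and -0.15.

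RPL27 showed the largest fall between the forms among members past the test. RPL3L and RPL17 had lower log2 folds, -0.50 ± 0.30 and -0.23 ± 0.10, that did not pass it. Its levels were 711, 698 and 711 CPM with vector, 714, 710.1 and 715 under p65 WT and 651, 598 and 603 under p65 2CS. The vector and p65 WT libraries overlapped and p65 2CS lay below both, with a log2 fold against p65 WT of -0.21 ± 0.03 (edgeR adjusted p = 4.0e-08). RPS15, a small subunit protein whose tail reaches the decoding site, had 1144, 1127 and 1148 CPM with vector, 1183, 1175 and 1265 under p65 WT and 1074, 1050.2 and 1034 under p65 2CS. It was highest under p65 WT and lowest under p65 2CS, without overlap, and the log2 fold between the forms was -0.20 ± 0.03 (edgeR adjusted p = 3.4e-08). RPL22, RPL31 and RPS3A fell by 12.7%, 12.6% and 12.5% between the same groups. RPSA, the laminin receptor homologue on the small subunit platform, fell by 9.63% from p65 WT to p65 2CS although it did not differ past the test from vector in the latter. With cyclic loess that fall was -0.037 on the log2 scale and did not pass the test (limma adjusted p = 0.058), and RPSA was higher than with vector (0.057, limma adjusted p = 0.0039). RPS2 likewise fell by 6.51%, but that fall turned into a rise of 0.07 on the log2 scale with cyclic loess.

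p65 WT against vector gave no common direction. Of 84 members, 14 were higher and 8 lower (edgeR, adjusted p under 0.05), against 16.4% and 12.5% of all genes, and the median log2 fold was 0.01, with -0.02 over all genes. The p65 WT libraries lay above all 3 vector libraries in 19 members and below them in 8, compared with 20.3% and 20.1% of all genes. The first count was near the share of all genes and the second below it. The split depended on the scaling: library totals alone gave 4 higher and 15 lower, totals without RELA 5 and 11, cyclic loess 4 and 10, size factors of the RLE type 17 and 5, DESeq2 18 and 5, and a loess on gene length 19 and 5. It depended on single libraries too: the higher count was 9 without vector replicate 1, 6 without vector replicate 2, 9 without vector replicate 3 and 6 without p65 WT replicate 6, and the lower count 3 without vector replicate 2, 5 without vector replicate 3 and 5 without p65 WT replicate 6. RPSA, RPS2 and RPS7 were higher, and RPL39 and RPS21 lower, in the reported fit and in every alternative run.

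RPSA rose from 1055, 1046 and 1057 CPM with vector to 1144, 1159 and 1171 under p65 WT. The groups did not overlap, and under p65 2CS the values returned to 1053, 1038 and 1049.9. The rise was 10.05% (log2 fold 0.14 ± 0.02, edgeR adjusted p = 4.4e-06). RPS2, at the mRNA entry site, rose from 4076, 4113 and 4107 to 4294, 4421 and 4508 CPM. Its p65 2CS libraries, at 4180.4, 4069 and 4114, overlapped those with vector. The rise under p65 WT was 7.54% (edgeR adjusted p = 1.2e-04), and pseudogenes of RPS2 held 32.2% as many counts as the gene. RPS7 had 597, 592 and 599.8 CPM with vector, 635, 637 and 651 under p65 WT and 569, 558 and 559.8 under p65 2CS. It was highest under p65 WT and lowest under p65 2CS, with no overlap among the 3 groups. RPL7A rose by 6.23% under p65 WT (edgeR adjusted p = 0.0018), a call that was lost with library totals alone, with cyclic loess and on the scale of summed member counts.

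Of the 8 members that fell under p65 WT, 5 have an mRNA under 450 bases. RPL39 fell by 9.14%, RPS29 by 9.98%, RPS21 by 8.24%, RPS27 by 7.99% and RPL38 by 6.63% (edgeR adjusted p from 8.7e-05 to 0.035). RPL26 had the largest fall, from 42.2, 41.3 and 41.1 to 35.7, 37.95 and 32.6 CPM, and RPL22L1 and RPL36AL fell by 13.6% and 9.88%. These 3 were under 100 CPM. Without p65 WT replicate 6, the lowest library for RPL26, its log2 fold was -0.17 with an edgeR adjusted p of 0.062. RPS27 lost its call without vector replicate 2 (edgeR adjusted p = 0.071), RPL38 lost its call there and with the loess on gene length, and RPL22L1, RPL36AL and RPS29 lost theirs under several alternatives. Of the 8 members with an mRNA under 450 bases and at least 50 CPM (RPL34, RPL36, RPL38, RPL39, RPLP1, RPS21, RPS27 and RPS29), 5 fell and 1 rose under p65 WT, and their median log2 folds were -0.11 under p65 WT and -0.18 under p65 2CS against vector. The 66 with longer mRNAs had medians of 0.02 and -0.11. This split was made after the values were seen.

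Members of at least 1000 CPM, 20 in number, gave 9 higher and 0 lower with a median log2 fold of 0.05 (edgeR, adjusted p under 0.05). The 22 members between 100 and 500 CPM gave 0 higher and 4 lower with a median of -0.02. Of the 2241 other genes of at least 100 CPM, 24.1% were higher and 21.1% lower. Under p65 2CS against vector the same 2 classes had medians of -0.09 and -0.16. Between the forms their medians were -0.15 and -0.13. Over the 71 members of at least 100 CPM, Spearman's rho between log2 level and log2 fold was 0.68 under p65 WT and 0.51 under p65 2CS against vector, comparisons that share the vector libraries, and -0.04 between the forms. Over the 2241 other genes of that level it was 0.08, -0.12 and -0.14. These correlations are across genes of the same libraries, so the points are not independent.

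**Figure D3:**
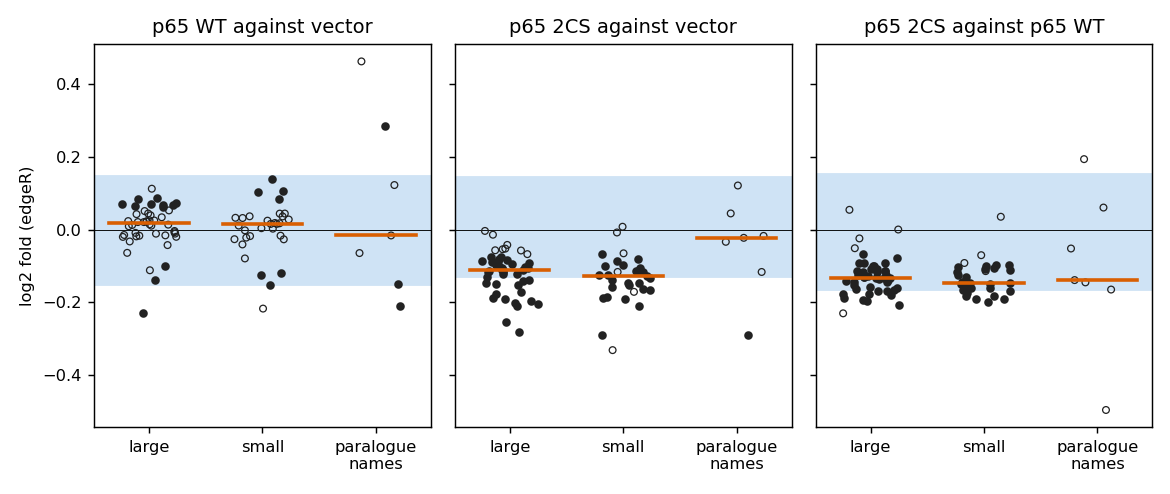
Log2 fold of each tested member (points; filled for an adjusted p under 0.05, open otherwise) in the 3 comparisons, for large subunit, small subunit and paralogue names, with medians as orange lines and the range between the lower and upper quartile of all tested genes as a blue band. Under p65 2CS most points lie below 0, while under p65 WT against vector they lie on both sides of 0.

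With each library scaled to the summed counts of the members, differences within the family appear. On this scale the median of all genes stood at 0.14 between the forms, and a fold is a change relative to the family. Under p65 2CS against vector, 13 members were lower and 5 higher, where 3.79% of all genes were lower and 24.9% higher. RPS21 stood at -0.19 ± 0.03, RPL36AL at -0.19 ± 0.06 and RPL39 at -0.18 ± 0.03 on the log2 scale, so they fell by more than the family as a whole. RPL7L1 stood at 0.14 ± 0.03, RPS2 at 0.11 ± 0.02, RPL10A at 0.09 ± 0.03, RPSA at 0.09 ± 0.02 and RPLP0 at 0.08 ± 0.02 (edgeR adjusted p from 8.7e-05 to 0.0057). Between the forms 2 members were lower, RPL27 and RPS15, and 7 higher: RPL22L1, RPL7L1, RPS29, RPL10A, RPL37, RPL12 and RPLP0, where 9.80% of all genes were lower and 34.5% higher. Under p65 WT against vector 4 were higher (RPL39L, RPSA, RPS2 and RPS7) and 11 lower, against 14.1% and 17.9% of all genes.

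Of the 7 paralogues tested, RPL36AL alone fell under p65 2CS against vector, while 62 of the 77 other members did. Between the forms 68 of those 77 fell, and the paralogues had edgeR adjusted p from 0.057 (RPL36AL) to 0.54 (RPS27L). All of the 7 but RPL7L1 were under 100 CPM, and the part of their level in this was not tested. As a share of the counts of each pair, RPL22L1 took 9.15%, 9.22% and 8.87% of RPL22L1 plus RPL22 with vector, 7.69%, 8.38% and 7.98% under p65 WT and 10.6%, 10.01% and 10.2% under p65 2CS. The 3 groups did not overlap, the p65 WT group being lowest and p65 2CS highest. In CPM, RPL22L1 fell under p65 WT from 19.7, 19.2 and 19.6 to 16.02, 17.9 and 16.6 (edgeR adjusted p = 0.045) and stood at 19.96, 19.1 and 18.8 under p65 2CS, where RPL22 was low. RPL7L1 took 34.3%, 33.8% and 32.95% of its pair with RPL7 with vector, 33.4%, 33.6% and 33.9% under p65 WT and 35.8%, 36.2% and 36.2% under p65 2CS. Its share was above all others under p65 2CS, where RPL7 fell by 7.09% against vector.

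RPL39L, the form of RPL39 known from testis and some tumours, rose under p65 WT from 13.6, 12.8 and 13.04 to 14.95, 16.5 and 16.6 CPM, by 21.9% (edgeR adjusted p = 0.02). Without vector replicate 2 or 3 or without p65 WT replicate 5 or 6 the rise no longer passed the test. Under p65 2CS it was at 12.3, 15.2 and 15.2 CPM, where p65 2CS replicate 7 was low. Its share of the pair was 3.65%, 3.45% and 3.42% with vector, 4.43%, 4.704% and 4.796% under p65 WT and 3.96%, 4.902% and 4.81% under p65 2CS, so vector lay below both p65 groups while RPL39 itself fell in both. RPL36AL took 80.8% to 82.7% of its pair with vector, 79.2% to 82.6% under p65 WT and 78.6% to 80.0% under p65 2CS. RPL36A, at 14.03 ± 1.403 CPM with vector (SD, n = 3), did not pass the test in any comparison. RPL26L1 took 44.2% to 46.3%, 47.6% to 54.9% and 48.1% to 51.7% of its pair with RPL26, and its own level of 34.8 ± 1.86 CPM with vector did not pass the test in any comparison. RPS27L, a p53 target, stayed at 16.2% to 18.4% of its pair with RPS27, and RPL3L at 0.043% to 0.090% of its pair with RPL3. For RPL10L, 0 counts in a group allow a level of at most 0.0530 CPM with vector, 0.0616 under p65 WT and 0.0490 under p65 2CS, by a limit of 3 counts over the summed group that covers counting error only. Reads shared by near-identical pairs may be split between them.

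**Figure D4:**
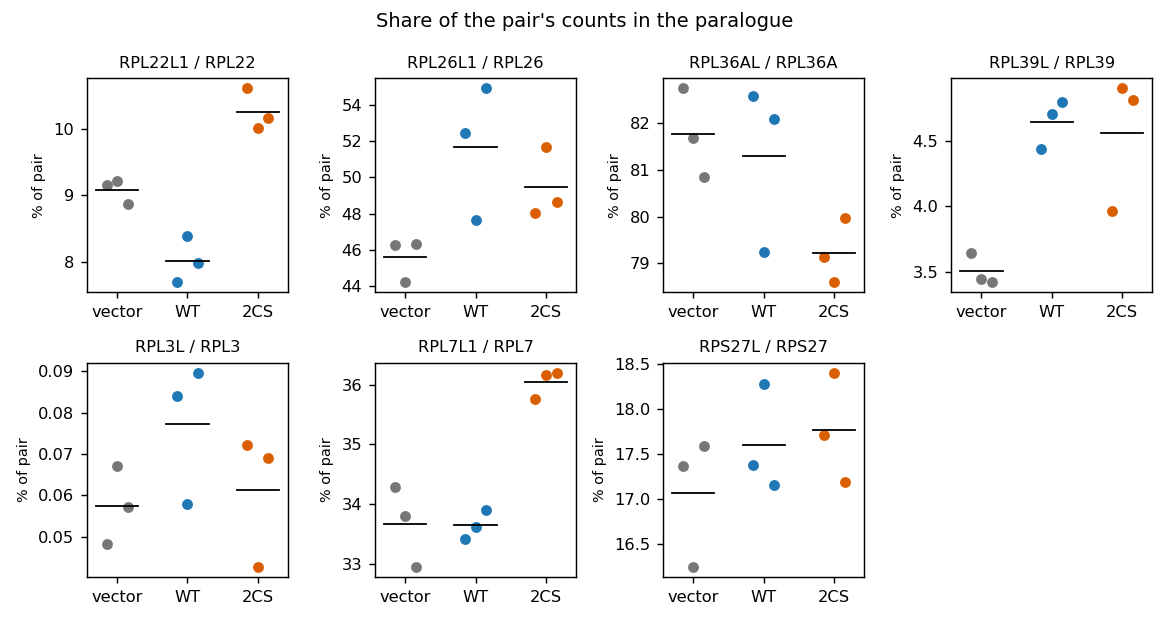
Share of the counts of each pair that fell in the paralogue, in percent, for each library (points) with the group mean (line); axes differ by pair and do not start at 0. RPL22L1 and RPL7L1 have their highest shares under p65 2CS, and RPL39L and RPL26L1 have their lowest with vector.

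Properties that could set members apart gave small differences in the medians. The 43 members with a C and 4 pyrimidines at the RefSeq start had a median log2 fold of -0.13 under p65 2CS against vector and 36 falls. The 24 others tested with a matched promoter had -0.10 and 14 falls, a smaller share of their set. The part of expression level in these shares was not tested. Between the forms both medians were -0.13. Members with a small nucleolar RNA gene in an intron, 28 in number, had a median of -0.12 under p65 2CS against vector, and the 56 without one -0.11. Another gene other than a small RNA overlapped 44 members, on the same strand for 15 and on the opposite strand for 37, and those 44 had a median of -0.12 against -0.11 for the other 40. Whether the counting used strand is not given in the sources used here, so reads in these overlaps may belong to either gene. Named pseudogenes existed for 77 members, and in 14 members they held more than 5% as many counts as the gene. Adding those counts to the members gave 63 lower under p65 2CS against vector, 68 lower between the forms and 14 higher and 8 lower under p65 WT.

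Genes that work with the ribosome did not all follow its proteins. FAU and RACK1 also encode proteins of the small subunit, under other names. FAU, made as a fusion with a ubiquitin-like protein, had 292, 289.9 and 276 CPM with vector, 296, 288 and 308 under p65 WT and 265, 265 and 257 under p65 2CS. Its p65 2CS libraries lay below all others, and its vector and p65 WT libraries overlapped (log2 fold between the forms -0.18 ± 0.03, edgeR adjusted p = 6.6e-06). RACK1, a scaffold for kinases on the ribosome, rose under p65 WT against vector by 0.10 ± 0.02 on the log2 scale (edgeR adjusted p = 3.4e-04) and stood at -0.02 ± 0.02 under p65 2CS. Translation factors and other transcripts known for a TOP motif, 23 genes tested, gave 8 higher and 1 lower under p65 WT against vector. They gave 0 and 8 under p65 2CS against vector, and 1 and 17 between the forms. Over all genes the shares higher and lower were 16.4% and 12.5%, 12.1% and 11.4%, and 13.4% and 17.9% in the same order. Among other genes of at least 100 CPM they were 24.1% and 21.1%, 17.2% and 29.4%, and 18.5% and 35.3%. EEF1A1, which brings aminoacyl-tRNA to the ribosome, had 8426, 8408 and 8566 CPM with vector, 8893, 9076 and 8880.3 under p65 WT and 8071, 7916 and 7986 under p65 2CS. The groups did not overlap, the p65 WT group being highest and p65 2CS lowest. EEF1D rose most under p65 WT (log2 fold 0.23 ± 0.03, edgeR adjusted p = 1.1e-07). VIM, an intermediate filament gene with a TOP motif that is also among the HEK293 markers, fell most under p65 2CS (-0.33 ± 0.03 against vector, edgeR adjusted p = 6.9e-12).

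Of 46 ribosome biogenesis factors, 1 was higher and 21 lower under p65 WT against vector, 6 and 7 under p65 2CS against vector, and 18 higher and 4 lower under p65 2CS against p65 WT, with medians of -0.11, -0.01 and 0.09. Over all genes the shares higher and lower were 16.4% and 12.5%, 12.1% and 11.4%, and 13.4% and 17.9% in the same order, so the counts under p65 2CS against vector were near the background. The same shares apply to the lists that follow. NOP14, a factor of small subunit assembly, was the 1 higher under p65 WT (log2 fold 0.30 ± 0.03), and DDX10 had the largest rise between the forms (0.37 ± 0.07, edgeR adjusted p = 2.2e-05). Of 11 genes of RNA polymerase I, which transcribes ribosomal RNA, 6 were lower under p65 WT against vector and 4 higher under p65 2CS against p65 WT. TAF1D had 107, 116 and 109.9 CPM with vector, 95.96, 94.5 and 89.4 under p65 WT and 121, 122 and 121 under p65 2CS. It was lowest under p65 WT and highest under p65 2CS, without overlap. Of 11 host genes of small nucleolar RNAs, 6 were lower and 0 higher under p65 WT against vector. Under p65 2CS, 2 were higher and 2 lower against vector, and 7 higher and 1 lower against p65 WT. GAS5, a host gene that itself begins with a TOP motif, had 170.2, 163 and 152 CPM with vector, 143, 128 and 139 under p65 WT and 177, 168 and 161 under p65 2CS, so its p65 WT libraries lay below both others.

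MYC, which activates many genes of ribosome synthesis, had 158, 152 and 159.6 CPM with vector, 117, 127 and 117 under p65 WT and 159, 156 and 163 under p65 2CS. Its p65 WT libraries lay below all others, and its vector and p65 2CS libraries overlapped. MTOR rose under p65 2CS against vector by 0.21 ± 0.03 on the log2 scale (edgeR adjusted p = 5.6e-06), and LARP1 had -0.08 ± 0.03 (edgeR adjusted p = 0.024). EIF4EBP2, a translation inhibitor that mTOR switches off, was highest under p65 WT and lowest under p65 2CS, at 305 ± 8.06 and 259 ± 13.7 CPM (SD, n = 3). Over the 16 regulators and chaperones on the list, 3 were higher and 3 lower under p65 WT against vector, 3 and 2 under p65 2CS against vector, and 4 and 1 between the forms. In the first 2 comparisons these numbers are near the shares of all genes given above, 16.4% and 12.5%, then 12.1% and 11.4%.

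**Figure D5:**
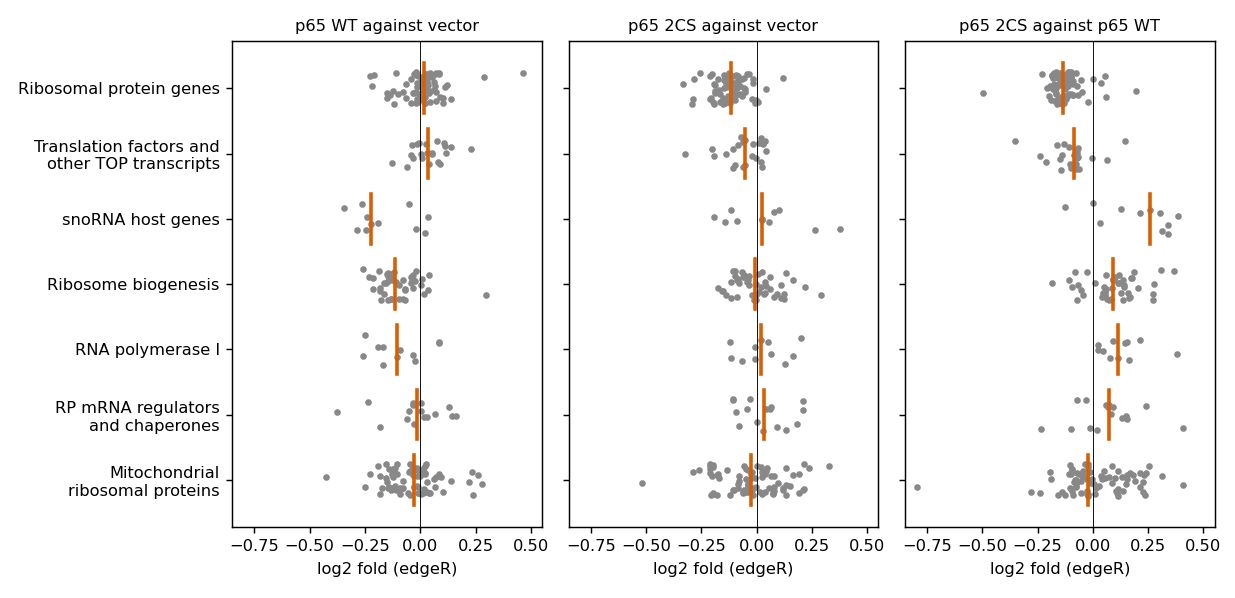
Log2 fold of each tested gene (points) and the list's median (orange line) in the 3 comparisons, for the ribosomal protein genes and 6 related lists. The ribosomal protein genes have medians below 0 under p65 2CS, whereas small nucleolar RNA hosts and ribosome biogenesis factors have medians of 0.26 and 0.09 between the forms.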

How the data were processed

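The deposited table holds whole-number counts per gene for 9 libraries, made by the authors; per the submitters' processing notes the reads were aligned with HISAT2 2.0.5. How reads were counted, whether by strand and on which build is not given in the sources used here. For all 85 members the start, end and strand matched GENCODE release 29 (GRCh38), used for mRNA lengths and overlaps. Per the labels, poly-A RNA was sequenced. Samples were grouped by their titles.

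The deposited counts were fitted by edgeR 4.0.16 (R 4.3.3): filterByExpr (minimum count 10; 18195 genes kept), TMM, 1 quasi-likelihood fit of all 9 libraries, the 3 pairwise contrasts and Benjamini-Hochberg adjustment over all tested genes at a threshold of 0.05. Totals of 15989601 to 25068515 counts set the precision; the median standard error of the called members was 0.03 on the log2 scale under p65 2CS. Tested on data simulated for p65 2CS against vector (18195 genes), the fit recovered 10 of 50 genes changed 1.1-fold and 50 of 50 changed 1.5-fold, with 14 false calls. The changed genes were drawn from all genes of at least 10 CPM, whereas 71 members averaged at least 100 CPM. This recovery therefore does not describe the members. Libraries of a group differed by more than sampling noise, so each was counted as 1 sample. Chi-square divided by its degrees of freedom was 1.91 to 2.64 over all genes and 2.80 to 6.37 over the members.

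Members and gene lists were chosen with earlier results of these data known. Members named are the 5 largest called rises and falls per comparison, the paralogues with their partners, the 5 highest and lowest per length, those not tested, and, of each related list, the called genes with the largest rise and fall; others were named for their place in the ribosome or known role after their values were seen. Alternatives were other scalings and filters, DESeq2 1.42.0, limma 3.58.1 (voom), added pseudogene counts, 2-group fits and leaving out each library. Some genes are not reported here.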

Additional observations from a re-analysis of the deposited data

How the results depend on the processing

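No paired analysis was possible because the groups share no replicate numbers (1 to 3, 4 to 6 and 7 to 9). The median kept its fall under p65 2CS under every scaling that can show a family-wide shift. Scaling to summed member counts removes such a shift by construction. On that scale the median between the forms was 0.00047, with 7 higher and 2 lower. Against vector the median was -0.018, with 5 higher and 13 lower. With cyclic loess and limma-voom the counts against vector were 5 higher and 41 lower (median -0.061) and between the forms 4 and 29 (median -0.048). Between the forms library totals alone gave 2 higher and 62 lower. Totals without RELA gave 2 higher and 47 lower with a median of -0.080, and the length loess 1 higher and 66 lower. Under p65 2CS against vector the same scalings, in that order, gave 70, 57 and 52 lower and 0 higher. For p65 WT against vector the higher, lower and median values were 4, 15 and -0.028 with library totals alone, 5, 11 and -0.016 without RELA, 4, 10 and -0.022 with cyclic loess, and 4, 11 and -0.021 on summed member counts; 5 were lower with RLE size factors, with DESeq2 and with the length loess. Leaving out each library in turn gave 6 to 17 higher and 3 to 7 lower under p65 WT, 55 to 63 lower under p65 2CS against vector, and 64 to 70 lower and 0 to 1 higher between the forms.

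Of the values for named members under the alternatives listed at the outset, 1266 kept their side of the threshold, 74 lost a call and 38 gained one. Another 14 reversed in sign with a call in either fit. Values uncalled in both fits count among the 1266 even where their sign changed. Under cyclic loess the log2 fold against vector under p65 2CS was 0.057 for RPSA, 0.0043 for RPL7A and 0.0053 for RPL13A, and between the forms 0.068 for RPS2, 5.4e-05 for RPL3 and 0.013 for RPL13A. On summed member counts it was, against vector, 0.090 for RPSA, 0.012 for RPS7, 0.014 for RPL7A, 0.0034 for RPL3 and 0.017 for RPL13A, and between the forms 0.037 for RPS2, 0.043 for RPL7 and 0.0023 for RPL13A. The cause of the shift under cyclic loess was not tested. TMM factors taken from other genes only, chosen after seeing the data, gave 64 lower against vector and 68 between the forms. Members under 100 CPM had fewer counts and fewer calls: 3 of 13 were called lower under p65 2CS against vector, compared with 60 of 71 above that level.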

Other observations

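Of the ribosomal proteins of mitochondria 77 genes were tested. Under p65 2CS 10 were higher and 13 lower against vector and 15 higher and 7 lower against p65 WT, with medians of -0.02 in both, and under p65 WT against vector 5 were higher and 9 lower. Over all genes 12.1% were higher and 11.4% lower in the first comparison, 13.4% and 17.9% in the second, and 16.4% and 12.5% under p65 WT against vector. MRPL23 had the largest fall under p65 2CS, from 60.4 ± 12.3 CPM with vector and 73.5 ± 4.76 under p65 WT to 42.2 ± 2.09 (SD, n = 3; edgeR adjusted p = 2.2e-06 and 4.4e-11). MRPL58, which also releases stalled peptides, rose from 30.3 ± 1.35 CPM with vector to 37.96 ± 1.88 under p65 2CS (edgeR adjusted p = 0.00024).

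Ribosomal protein pseudogenes numbered 1144, of which 90 passed the filter on low counts. They gave 11 higher and 2 lower under p65 WT against vector, 3 and 7 under p65 2CS against vector and 0 and 14 between the forms. Over all genes the shares higher and lower were 16.4% and 12.5%, 12.1% and 11.4%, and 13.4% and 17.9% in the same order. None of the pseudogene counts was above the share of all genes. Their counts may hold reads of the parent genes. RPSAP3 was at 0.0163 ± 0.0283 CPM with vector and 0.0176 ± 0.0304 under p65 2CS, both under the limit of 3 counts a group, and at 0.879 ± 0.294 under p65 WT (SD, n = 3). RPSA, its parent by name, was the member with the smallest adjusted p among those that rose under p65 WT.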
